A study of Mus musculus with 116 samples.

Results

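Translation initiation and elongation factors were followed over all 18 conditions of an array study of mouse FDB1 cells. They were chosen by name: every probe whose platform gene symbol starts with Eif or Eef followed by a digit was taken, and 2 symbols ending in -ps were left out. This gave 55 genes read by 64 probes, of 15097 gene symbols tested. Eif2s1, Eif3g, Eif4g1 and Eif5b are not among them and are not analysed here. FDB1 is a mouse myeloid cell line that depends on a growth factor, and all cells were grown in medium with 10% serum and 500 U/mL of IL-3 and washed free of it at 0 h. The parental cells were then moved to 500 U/mL of GM-CSF. The other lines carried a GM-CSF receptor mutant, V449E in one line and FI-Delta in the other, and were left without factor. RNA was compared at 0, 6, 12, 24, 48 and 72 h, where 0 h is the time IL-3 was removed, and each condition had 2 replicates, giving 36 RNAs. The labels do not say that replicates were separate cultures, or whether a mutant line was 1 clone, so a p-value here is set against the spread of these RNAs, which may be technical.

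Translation of most messenger RNAs begins when eIF4F binds the cap: eIF4E holds the cap, eIF4G is the scaffold and eIF4A is the helicase. A small ribosomal subunit carrying eIF3 and the ternary complex of eIF2, GTP and initiator tRNA is recruited there, and eIF1, eIF1A and eIF5 set the start codon. eIF2B reloads eIF2 with GTP and is blocked when an eIF2 alpha kinase phosphorylates eIF2, while 4E-binding proteins take eIF4E away from eIF4G. In elongation, eEF1A brings each aminoacyl-tRNA, eEF1B reloads eEF1A with GTP, and eEF2 moves the ribosome along. Growth factor signals act on several of these steps, mostly on the proteins.

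RNAs were compared on two-colour spotted arrays in 58 dye-swap pairs, and each level below is a log2 value relative to the mean of the 18 RNAs of the same replicate number. A level of 0 is therefore that gene's average over the study, and levels of different genes cannot be set against each other. Log base 2 and the ratio direction (Cy5 over Cy3) were taken as likely and are not stated, so folds and directions rest on that reading. Were the ratio Cy3 over Cy5, every sign below would turn: for FI-Delta cells at 72 h against 0 h, 25 factors would be higher and none lower, for GM-CSF 12 higher and none lower, and for V449E against FI-Delta at 72 h 21 lower and 1 higher. The maturation markers given below would turn with them. A difference is given as log2 ± SE and was tested with limma, with Benjamini-Hochberg adjustment over all 15097 symbols. "Higher" and "lower", said of a count, mean an adjusted p under 0.05. Shares of all symbols use the adjusted p too. Counts at an unadjusted p under 0.05 are given for the factors alone. No such share over all symbols is given, so these counts cannot be set against the shares beside them. Each condition was on 8 to 32 arrays, a number that bounds the precision: the median SE of a difference over all symbols was 0.09. The arrays came from 2 print runs of 90 and 26 arrays. All replicate 2 arrays of the GM-CSF time course were in run 2, so there the replicate and the print run cannot be told apart. Array medians lay between -0.016 and 0.011. These are values of bulk RNA: fewer cells of a type and less RNA per cell cannot be told apart, and a change in total RNA per cell does not show. Without intensities, the presence of a cell type's markers could not be checked, only their change.

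The median factor lay farther from its starting level at 72 h than at earlier times in FI-Delta cells and in GM-CSF, but not in V449E cells. In FI-Delta cells, the median difference of the 55 genes from 0 h was -0.08, -0.10, -0.08 and -0.06 at 6, 12, 24 and 48 h, and -0.24 at 72 h. In parental cells in GM-CSF, the median at 72 h was -0.11. In V449E cells it was -0.02. Over all 15097 symbols, the medians at 72 h were -0.0032, 0.0033 and 0.0011 in the same order. By sign, 39, 47, 39 and 39 of the 55 genes lay below 0 in FI-Delta cells at 6, 12, 24 and 48 h. Over all symbols, 50.4%, 46.6%, 49.5% and 50% did. At these times 35, 37, 23 and 27 genes lay below 0 in GM-CSF, and 39, 35, 29 and 26 in V449E cells. An F-test over the 5 times found a change in 22 of the 55 genes in FI-Delta cells (15.7% of all symbols), in 17 in GM-CSF (17.4%) and in 6 in V449E cells (5.74%). With every array set to equal spread, the FI-Delta count was 13 and the V449E count 10. Using print run 1 alone, the V449E count was 2.

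**Figure D1:**
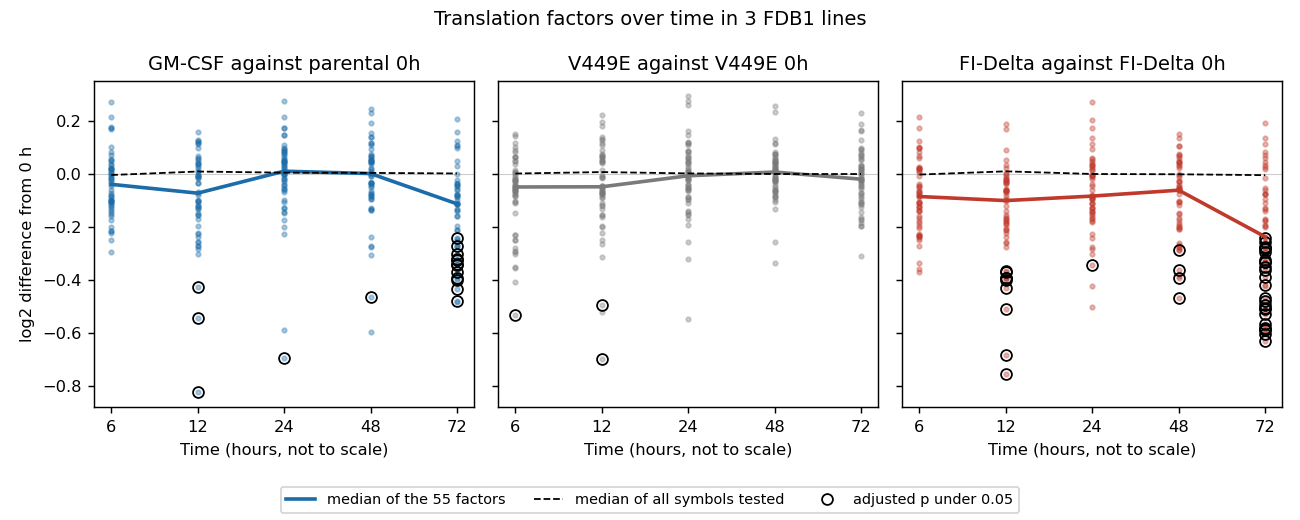
Log2 difference from 0 h (y axis) against time in hours, not to scale (x axis), for the 55 factors in parental cells in GM-CSF, V449E cells and FI-Delta cells, with a point for each gene, a ring around genes with an adjusted p under 0.05, a solid line for the median of the factors and a dashed line for that of all symbols. The median ends at -0.11 in GM-CSF, -0.02 in V449E and -0.24 in FI-Delta cells.

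FI-Delta cells at 72 h without factor had 25 of the 55 factors lower than at 0 h and none higher, where 10.7% of all symbols were lower and 7.85% higher. The median difference was -0.23 in replicate 1 and -0.24 in replicate 2, and 45 of the 55 genes lay below 0, against 50.9% of all symbols. No factor passed upward, and the highest difference was that of Eef1a1. The largest falls were in Eif2s2, Eif4e, Eef1e1, Eif6 and Eif3m, which work at different steps. Eif2s2 is the beta subunit of eIF2. Its level was 0.15 and 0.34 at 0 h and -0.53 and -0.24 at 72 h (replicates 1 and 2 here and below), a difference of -0.63 ± 0.12 (SE), adjusted p = 0.000701, or 1.55-fold lower. The 0 h and 72 h RNAs did not overlap. Here and below, such a gap is likely in genes picked for large differences that passed. Its share over all symbols was not counted. Eif4e, the cap-binding protein, went from 0.07 and 0.12 to -0.51 and -0.50, with both replicates close together at each time (-0.60 ± 0.11 (SE), adjusted p = 0.000348). Eef1e1 encodes a small scaffold protein of the multi-tRNA synthetase complex and is named for its likeness to eEF1. Its level was 0.09 and 0.29 at 0 h and -0.45 and -0.35 at 72 h (-0.59 ± 0.10 (SE), adjusted p = 0.000324). Eif6 keeps free large ribosomal subunits from joining small ones and is also needed to make them. It stood at 0.16 and 0.18 at 0 h and at -0.40 and -0.42 at 72 h (-0.59 ± 0.08 (SE), adjusted p = 2.16e-05). Eif3m, an eIF3 subunit, went from 0.10 and 0.16 to -0.41 and -0.49 (-0.58 ± 0.08 (SE), adjusted p = 5.03e-05). Fewer genes passed in smaller sets of RNAs: 12 without FI-Delta 72h replicate 1, 12 without FI-Delta 0h replicate 1 and 14 without FI-Delta 0h replicate 2. Eif2s2 did not pass without FI-Delta 72h replicate 1. Of the 25, 8 passed under all 15 settings tried: Eef1e1, Eef1g, Eif3b, Eif3j1, Eif3l, Eif3m, Eif4e and Eif6. Print run 1 alone gave 26 genes and a median of -0.21. With arrays set to equal spread 17 genes passed, and Eef2k, Eif2b2, Eif2b4, Eif2d, Eif2s3x, Eif3e, Eif4b and Eif4g2 of the 25 did not.

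eIF3, the largest role group, had the most genes lower, while the eIF2 and eIF2B groups described below each had 3 of 4 lower. In FI-Delta cells at 72 h, 10 of its 12 measured subunits were lower, and all 12 lay between -0.58 and -0.24, with a median of -0.34. eIF3 is the large scaffold on the small ribosomal subunit. Of its core subunits, Eif3a fell by 0.39 on the log2 scale, Eif3b fell by 0.42 and Eif3c fell by 0.33. Eif3l went from 0.14 and 0.17 at 0 h to -0.49 and -0.26 at 72 h (-0.53 ± 0.08 (SE), adjusted p = 0.00014). Eif3j1, for the loosely bound subunit, went from 0.11 and 0.20 to -0.43 and -0.27 (-0.51 ± 0.09 (SE), adjusted p = 0.000634). In both genes, each 72 h RNA was below each 0 h RNA. Among the other subunits, the differences were -0.28 for Eif3e, -0.33 for Eif3f, -0.32 for Eif3h and -0.35 for Eif3i, which all passed. Eif3d, the subunit that can itself bind a cap, was at -0.33 ± 0.12 (SE), adjusted p = 0.0668, and Eif3k was at -0.24 ± 0.09 (SE), adjusted p = 0.0819. Neither passed, but both had the sign of the other subunits.

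**Figure D2:**
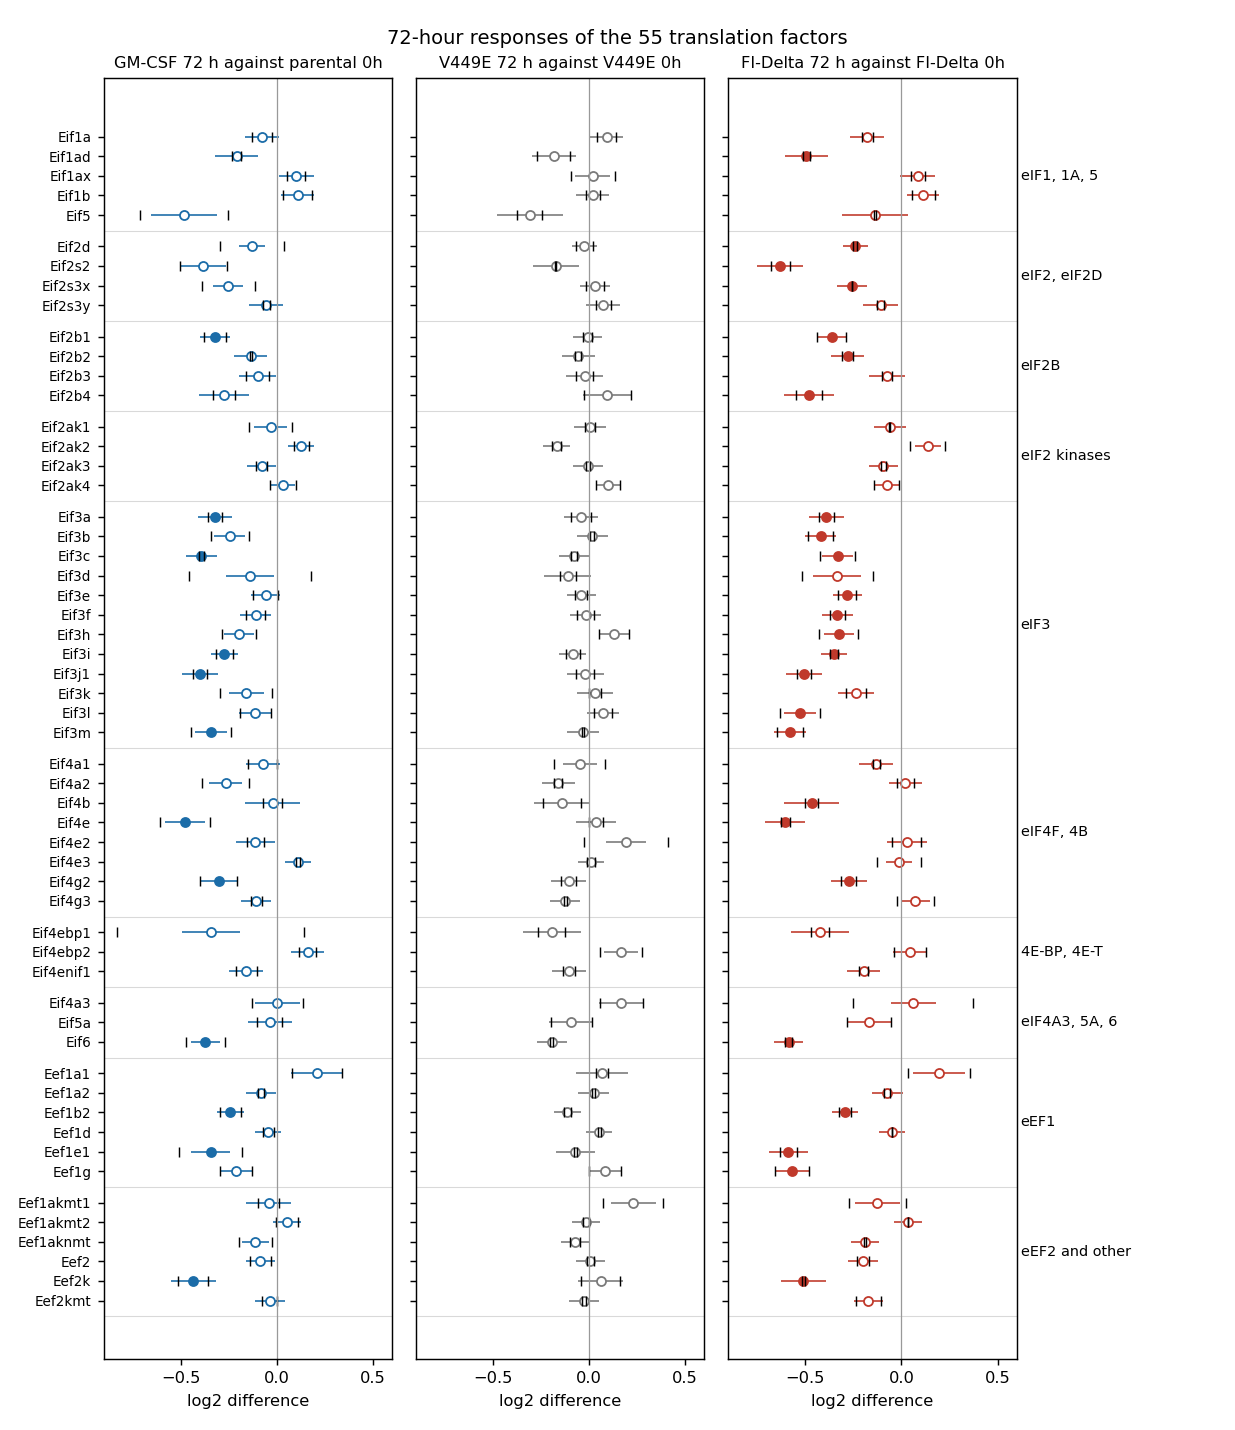
Log2 difference from 0 h at 72 h (x axis) for the 55 factors, grouped by role (y axis), in parental cells in GM-CSF, V449E cells and FI-Delta cells; filled points passed the limma test at an adjusted p under 0.05, bars are ± SE and black ticks are the replicates. In FI-Delta cells, 10 of 12 eIF3 subunits and none of 4 eIF2 alpha kinases are filled.

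Of 4 genes of the group that supplies initiator tRNA, 3 were lower in FI-Delta cells at 72 h. Besides Eif2s2, Eif2s3x, the X-linked gamma subunit of eIF2, was at -0.26 ± 0.08 (SE), adjusted p = 0.0236. Its Y-linked copy Eif2s3y was at -0.11 ± 0.09 (SE), adjusted p = 0.466 and did not pass. These copies are alike in sequence, and whether their probes tell them apart was not tested. Eif2d, a factor that can deliver tRNA without eIF2, was at -0.24 ± 0.07 and passed. Of the eIF2B subunits, 3 of 4 were lower: Eif2b1 (alpha) at -0.36 ± 0.08, Eif2b2 (beta) at -0.28 ± 0.09 and Eif2b4 (delta) at -0.48 ± 0.13. Eif2b3 (gamma) was at -0.08 ± 0.10 (SE), adjusted p = 0.669. The 4 kinases that phosphorylate eIF2 did not pass: the heme-regulated Eif2ak1 at -0.06 ± 0.08, the double-stranded RNA sensor Eif2ak2 at 0.14 ± 0.07, the endoplasmic reticulum kinase Eif2ak3 at -0.09 ± 0.08 and the amino acid sensor Eif2ak4 at -0.08 ± 0.06. Of the 2 Eif2ak2 probes, 1 passed upward when tested alone (0.28, limma adjusted p = 0.0407) and the other was at -0.01 (adjusted p = 0.943). In the start codon group, Eif1ad, a nuclear protein with an eIF1A-like domain, was the 1 of 5 lower (0.20 and 0.32 at 0 h and -0.28 and -0.20 at 72 h, -0.49 ± 0.11 (SE), adjusted p = 0.00335). Eif1a, Eif1ax and Eif1b lay at -0.18, 0.09 and 0.11. Eif5, which triggers GTP hydrolysis by eIF2, was at -0.14 ± 0.17 (SE), adjusted p = 0.662, and whether its only probe reads its messenger RNA was not tested.

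In the cap-binding group, 3 of 8 genes were lower in FI-Delta cells at 72 h, and they were not all partners of one complex. Beside Eif4e, these were Eif4b, which stimulates the helicase, at -0.47 ± 0.14 (SE), adjusted p = 0.0239, and Eif4g2, a scaffold that does not bind eIF4E, at -0.27 ± 0.09 (SE), adjusted p = 0.0403. The replicates of Eif4b differed from 0 h by -0.50 and -0.43. The helicase genes were near 0, Eif4a1 at -0.13 ± 0.09 and Eif4a2 at 0.02 ± 0.09. The cap-binding relatives Eif4e2 and Eif4e3 were at 0.03 and -0.01, and the scaffold Eif4g3 at 0.07. None of these passed. Among the genes whose proteins hold eIF4E, Eif4ebp1 went from 0.30 and 0.22 to -0.08 and -0.25 (-0.42 ± 0.15 (SE), adjusted p = 0.0534), just outside the threshold. Eif4ebp2 was at 0.05 and the eIF4E transporter Eif4enif1 at -0.20. Of the remaining initiation factors, Eif4a3, a helicase of the exon junction complex, was at 0.06, and Eif5a, the hypusine-bearing factor that helps the ribosome through hard stretches, was at -0.17 ± 0.12 (SE), adjusted p = 0.357. Eif6 and Eif5a thus lay apart at -0.59 and -0.17, without a test of that difference.

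Among 6 genes named for eEF1, 3 were lower at 72 h, Eef1e1 and 2 of the 3 subunits of the exchange factor eEF1B, while neither gene of the carrier eEF1A passed. Eef1g, the gamma subunit of eEF1B, went from 0.18 and 0.14 at 0 h to -0.48 and -0.34 at 72 h in FI-Delta cells (-0.57 ± 0.09 (SE), adjusted p = 9.04e-05), with both 72 h RNAs below both 0 h RNAs. Eef1b2, the catalytic subunit, was at -0.29 ± 0.07 and passed, and Eef1d, the delta subunit, was at -0.05 ± 0.07 (SE), adjusted p = 0.686. Eef1a1 was at 0.20 ± 0.13 (SE), adjusted p = 0.359, and Eef1a2, the form of muscle and neurons, was at -0.07 with probes that disagreed. Eef2, the translocase, was at -0.20 ± 0.08 (SE), adjusted p = 0.0726. Of its 3 probes, 2 passed when tested alone, at -0.23 (limma, adjusted p = 0.0381) and -0.20 (adjusted p = 0.026). Eef2k, the kinase that inhibits eEF2, fell from 0.11 and 0.09 to -0.39 and -0.42 (-0.51 ± 0.12 (SE), adjusted p = 0.00355), and did not pass with arrays set to equal spread or without FI-Delta 0h replicate 1. The lysine methyltransferases Eef1akmt1, Eef1akmt2 and Eef2kmt were at -0.13, 0.03 and -0.17, and Eef1aknmt, which also methylates the eEF1A terminus, was at -0.19. None of the 4 passed.

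Markers of maturing myeloid cells also changed at 72 h in FI-Delta cells and in GM-CSF, and their part in the result was not tested. Their timing was not that of the factors throughout. Of 11 macrophage markers, 3 were higher in GM-CSF at 24 h, 4 at 48 h, and 4 in V449E cells at 24 h. The median factor difference was then 0.012, 0.0029 and -0.0055. In FI-Delta cells at 48 h, 5 of the 11 were higher, with a median factor difference of -0.06. In FI-Delta cells at 72 h, 5 of 9 late granule markers were higher (range 0.66 to 2.68, median 1.31), as were 5 of 11 macrophage markers (range -0.27 to 1.30, median 0.56). Of 8 mast cell and basophil markers, Cpa3, Fcer1a and Mcpt8 were lower (range -2.87 to 0.34, median -0.11, 5 below 0). Of 7 early myeloid markers, Cd34 and Myb were lower (range -1.21 to 0.86, median -0.20, 5 below 0). Of 6 erythroid and megakaryocyte markers, 1 was lower, and none of 6 lymphoid markers passed (range -0.24 to 0.07). In GM-CSF at 72 h, 7 of 11 macrophage markers (median 0.78) and 2 of 9 late granule markers (median 0.42) were higher, the same 3 of 8 mast cell markers were lower (range -1.70 to 0.17, median -0.39), and no lymphoid marker passed. All 7 early myeloid markers lay below 0 there (median -0.33), of which Myb passed. In V449E cells at 72 h, no marker of any list passed (0% of all symbols did), with medians of 0.12 for macrophage and 0.08 for late granule markers.

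Parental cells moved to GM-CSF had 12 of the 55 factors lower at 72 h than at 0 h and none higher (3.41% of all symbols were lower and 3.82% higher). The largest falls were in Eif4e, Eef2k, Eif3j1, Eif3c and Eif6. Eif4e had levels of 0.19 and 0.09 at 0 h and -0.42 and -0.26 at 72 h (-0.48 ± 0.11 (SE), adjusted p = 0.00635). Eef2k went from 0.08 and 0.10 to -0.27 and -0.41 (-0.43 ± 0.12 (SE), adjusted p = 0.0247), and Eif3j1 from 0.29 and 0.19 to -0.07 and -0.25 (-0.40 ± 0.09 (SE), adjusted p = 0.0106). Eif3c, which bridges eIF3 to eIF1 and eIF5, stood at 0.26 and 0.17 at 0 h and at -0.14 and -0.21 at 72 h (-0.39 ± 0.08 (SE), adjusted p = 0.00332). Eif6 fell from 0.17 and 0.08 to -0.30 and -0.19 (-0.37 ± 0.08 (SE), adjusted p = 0.00422). In these 5 genes the 0 h and 72 h RNAs did not overlap, which is likely because they were picked as the largest falls that passed. The other 7 lower genes were Eef1b2 (-0.24), Eef1e1 (-0.34), Eif2b1 (-0.32), Eif3a (-0.32), Eif3i (-0.27), Eif3m (-0.34) and Eif4g2 (-0.30). Neither of the 2 Eef1b2 probes passed alone (-0.23 and -0.26, limma adjusted p = 0.0559 and 0.191). Eif4g2 also did not pass when each probe was tested on its own. eIF3 supplied 5 of the 12, and all its 12 subunits lay below 0 with a median of -0.22. No eIF2 subunit, eIF2 alpha kinase or 4E-binding protein passed at 72 h. Eif4ebp1 had differences of -0.83 and 0.14 in the replicates, of opposite sign. The count depended on single RNAs: no factor passed without Parental 0h replicate 1, 7 genes passed without Parental 0h replicate 2 and 3 without GM-CSF 72h replicate 1. Print run 1 alone holds no replicate 2 arrays of the GM-CSF course, so GM-CSF is then 1 RNA. It gave 11 genes and a median of -0.20, but of the 12 genes above, Eif3a, Eif3c, Eif3j1, Eif3m and Eif4g2 no longer passed. With arrays set to equal spread 8 genes passed, and Eef1b2, Eef1e1, Eef2k, Eif3a and Eif4g2 of the 12 did not.

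Earlier in GM-CSF, few factors passed. At 12 h, Eif1ad, Eif2s2 and Eif4ebp1 were lower (2.27% of all symbols), at 24 h Eif4ebp1 (0.344%) and at 48 h Eef2k (0.603%), at -0.47 ± 0.12 (SE), adjusted p = 0.0416. At 6 h none passed (0.59% of all symbols in either direction), with 8 at an unadjusted p under 0.05 in limma. Eif4ebp1, the best known 4E-binding protein, passed at both 12 and 24 h. Its level was 0.64 and 0.16 at 0 h, -0.53 and -0.31 at 12 h and -0.21 and -0.38 at 24 h. The difference at 12 h was -0.83 ± 0.15 (SE), adjusted p = 0.00476, and at 24 h it was -0.70 ± 0.15 (SE), adjusted p = 0.0177. Replicate 1, which started higher, differed by -1.18 at 12 h, against -0.48 in replicate 2.

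In V449E cells, the factors that passed were few and early. At 72 h without factor, the 55 differences from 0 h ran from -0.31 to 0.23, none passed in limma, and 2 had an unadjusted p under 0.05 (0% of all symbols passed). At 48 h none passed (0.00662% of all symbols in either direction, 1 member at an unadjusted p under 0.05), and at 24 h none passed (1.5%, 8 members). Early on, Eif2s2 was lower at 6 h (0.47% of all symbols were lower), and Eif2s2 and Eif1ad were lower at 12 h (0.894%). Eif2s2 had levels of 0.37 and 0.26 at 0 h, -0.23 and -0.20 at 6 h, -0.41 and -0.36 at 12 h and 0.19 and 0.09 at 72 h. The difference was -0.53 ± 0.12 (SE), adjusted p = 0.028, at 6 h and -0.70 ± 0.12 (SE), adjusted p = 0.00348, at 12 h. At 72 h it was -0.17 ± 0.12 (SE), adjusted p = 1. A miss of the threshold does not show that 72 h equals 0 h. Eif4e was at 0.04 ± 0.11 and the eIF3 subunits had a median of -0.03.

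Eif2s2 and Eif1ad were lower at 12 h in each of the 3 courses. FI-Delta cells had 9 factors lower at 12 h, where 4.34% of all symbols were: Eef1e1, Eif1ad, Eif2b1, Eif2s2, Eif3a, Eif3b, Eif3j1, Eif4ebp1 and Eif6. Eif2s2 in FI-Delta cells went from 0.15 and 0.34 at 0 h to -0.52 and -0.50 at 12 h (-0.76 ± 0.12 (SE), adjusted p = 0.000549). In GM-CSF its levels were 0.48 and 0.18 and then -0.32 and -0.11 (-0.54 ± 0.12 (SE), adjusted p = 0.0148). Over 6, 12, 24, 48 and 72 h, the mean differences of Eif2s2 were -0.16, -0.54, -0.22, -0.09 and -0.38 in GM-CSF, -0.53, -0.70, -0.32, 0.004 and -0.17 in V449E cells and -0.20, -0.76, -0.42, -0.19 and -0.63 in FI-Delta cells. All 3 courses were lowest at 12 h and closest to 0 at 48 h. At 72 h the adjusted p of Eif2s2 in limma was 0.0526 in GM-CSF, 1 in V449E cells and 0.000701 in FI-Delta cells. Eif1ad followed a like course: -0.10, -0.43, 0.09, 0.02 and -0.21 in GM-CSF, -0.41, -0.49, -0.19, -0.01 and -0.18 in V449E cells and -0.36, -0.69, -0.23, -0.29 and -0.49 in FI-Delta cells. At 12 h its adjusted p in limma was 0.0369, 0.024 and 0.000888 in that order. Eif4ebp1 was also lower at 12 h in FI-Delta cells (-0.51 ± 0.15 (SE), adjusted p = 0.0424), while in V449E cells it was at -0.52 ± 0.15 (SE), adjusted p = 0.0853. At 6 h no factor passed in FI-Delta cells (1.22% of all symbols in either direction), with 14 at an unadjusted p under 0.05. At 24 h Eif3l was lower there (0.702%), and at 48 h Eef1g, Eef2k, Eif3m and Eif4e were (2.31%).

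**Figure D3:**
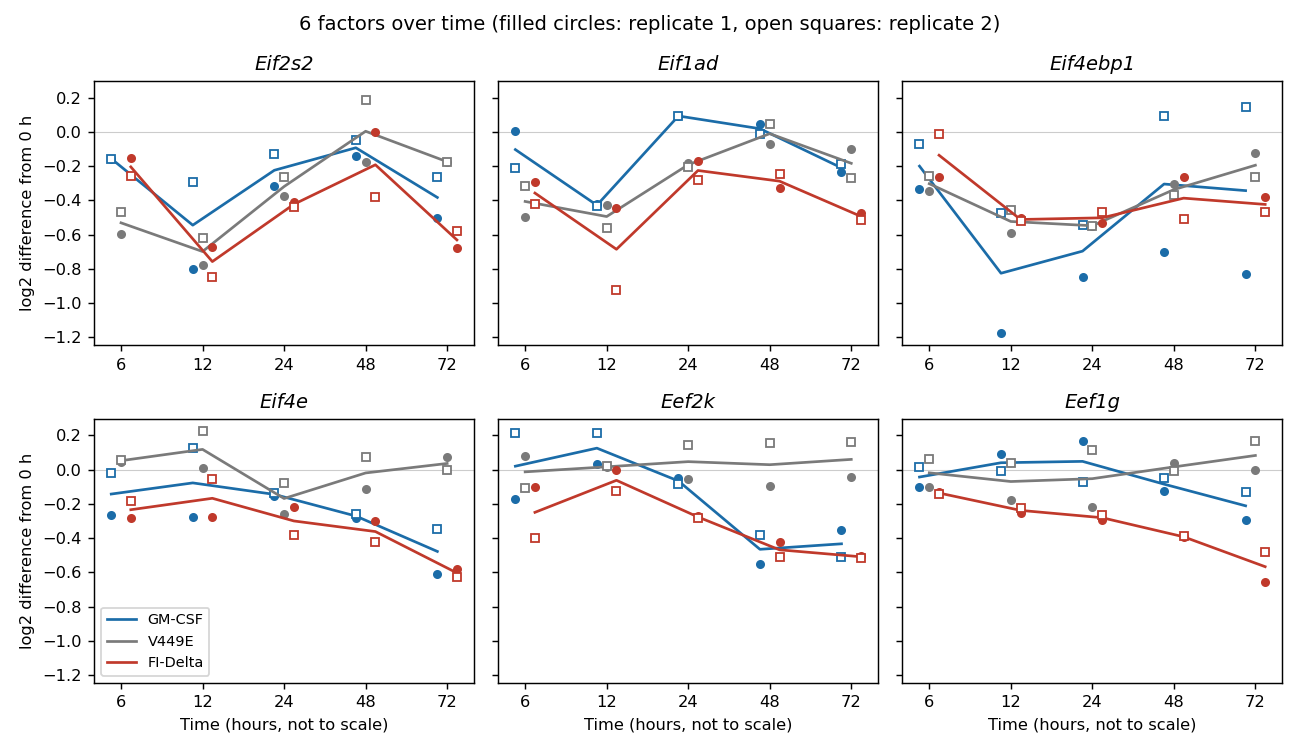
Log2 difference from 0 h (y axis) against hours, not to scale (x axis), for 6 factors in parental cells in GM-CSF, V449E and FI-Delta cells, with a point for each RNA and a line through the means. Eif2s2 is lowest at 12 h in every line, and the mean of Eif4e at 72 h is at -0.60 in FI-Delta cells and 0.04 in V449E cells.

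The F-test over time passed in all 3 lines for 5 factors, Eef1e1, Eif1ad, Eif2s2, Eif3b and Eif4a1, where 2.96% of all symbols did so. In the V449E line, which had fewest changes, their adjusted p-values were 0.0401, 0.0229, 0.00245, 0.0456 and 0.0174 (limma F-test). These genes took different courses. Eif4a1, the main helicase of eIF4F, had its lowest means at 6 and 12 h: its mean differences were -0.25, -0.22, 0.17, 0.14 and -0.07 in GM-CSF, -0.35, -0.26, -0.05, 0.08 and -0.05 in V449E cells and -0.27, -0.27, 0.18, 0.08 and -0.13 in FI-Delta cells, and no time passed alone. Eif3b, the core scaffold subunit of eIF3, was at -0.11, -0.15, 0.05, 0.05 and -0.25 in GM-CSF, at -0.25, -0.15, 0.07, 0.07 and 0.02 in V449E cells and at -0.24, -0.37, 0.02, -0.26 and -0.42 in FI-Delta cells. Eef1e1 was at -0.22, -0.27, 0.18, 0.12 and -0.34 in GM-CSF, at -0.36, -0.31, -0.14, 0.06 and -0.07 in V449E cells and at -0.37, -0.39, -0.09, -0.06 and -0.59 in FI-Delta cells. The sixth gene of the V449E line was Eef1akmt1, which went from -0.23 at 6 h to 0.28 at 24 h.

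The starts of these 5 genes are shown because their RNAs moved in every line. Sequences are RefSeq's on build GRCm38.p6, 60 bases before and 10 bases from the start site, with the first 5 transcribed bases in capitals.
Eef1e1, chr13:38659019-38659088, minus strand: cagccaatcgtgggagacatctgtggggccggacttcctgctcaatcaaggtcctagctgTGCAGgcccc
Eif1ad, chr19:5366753-5366822, plus strand: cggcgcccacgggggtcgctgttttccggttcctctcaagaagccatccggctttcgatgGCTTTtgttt
Eif2s2, chr2:154892897-154892966, minus strand: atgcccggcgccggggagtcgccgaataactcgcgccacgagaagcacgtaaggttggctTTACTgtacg
Eif3b, chr5:140419245-140419314, plus strand: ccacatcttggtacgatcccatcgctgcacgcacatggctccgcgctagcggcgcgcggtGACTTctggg
Eif4a1, chr11:69672414-69672483, minus strand: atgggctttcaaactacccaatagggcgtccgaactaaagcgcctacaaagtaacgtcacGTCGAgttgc
None of the 5 starts with C followed by at least 4 C or T, the terminal pyrimidine tract known from ribosomal protein genes. Over all 32851 RefSeq promoter windows of 250 bases before to 50 after a start, 2.51% had such a start. The windows matched 43 of the 55 factors (58 windows), and 2 of these (3.45%) had it, those of Eif2s3x and Eif3f. CACGTG, the E-box read by MYC and its relatives (the same on both strands), was in 12 of the 58 windows (20.7%) and in 7.15% of all windows. Its holders were Eef1aknmt, Eef2, Eef2k, Eif1b, Eif3a, Eif3f, Eif3k, Eif4a1, Eif4e and Eif5a. TGATGNAA, an ATF4-type element searched on both strands, was in 2 windows (3.45%), those of Eef2k and Eif2s3x, and in 3.97% of all. A match is a description of letters and not a site. For CACGTG and TGATGNAA, no match says only that these letters are not in the window. The pyrimidine tract was sought only at the first transcribed base, so no match leaves the rest of the window open. Of the 5 genes above, Eif4a1 alone held CACGTG, in the stretch here with the motif in capitals.
Eif4a1, chr11:69672587-69672632, minus strand: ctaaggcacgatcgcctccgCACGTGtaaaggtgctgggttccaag

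V449E and FI-Delta cells were also compared at matched times, and more factors passed at 72 h than at any earlier time. At 72 h, 21 of the 55 factors were higher in V449E cells and 1 was lower, where 10.8% of all symbols were higher and 8.86% lower. The median difference was 0.21, against -0.0022 over all symbols. This comparison uses the same FI-Delta 72h RNAs as the one with FI-Delta 0h above. Eif4e differed most, at 0.39 and 0.13 in V449E and -0.51 and -0.50 in FI-Delta cells (0.77 ± 0.11 (SE), adjusted p = 1.51e-05). Eef2k was at 0.18 and 0.30 and -0.39 and -0.42 (0.65 ± 0.12 (SE), adjusted p = 0.000343), and Eef1g at 0.20 and 0.26 and -0.48 and -0.34 (0.64 ± 0.09 (SE), adjusted p = 1.13e-05). In these 3 genes the V449E RNAs were all above the study average and the FI-Delta RNAs all below it. Eif2s2 was at 0.19 and 0.09 in V449E and -0.53 and -0.24 in FI-Delta cells (0.53 ± 0.12 (SE), adjusted p = 0.00266). Eif3l, a peripheral eIF3 subunit, was at 0.12 and 0.11 and -0.49 and -0.26 (0.49 ± 0.08 (SE), adjusted p = 0.000185). Of the eIF3 subunits, 10 of 12 were higher in V449E cells, with a median of 0.32 and a range of 0.21 to 0.49. The 1 factor higher in FI-Delta cells was Eif2ak2, the interferon-inducible kinase PKR, with levels of -0.16 and -0.16 in V449E and 0.08 and 0.10 in FI-Delta cells (-0.25 ± 0.07 (SE), adjusted p = 0.00999). Of its 2 probes, 1 passed alone (-0.36, limma adjusted p = 0.00829) and the other was at -0.14 (adjusted p = 0.147). Eif2ak2 did not pass without V449E 72h replicate 2 or without either FI-Delta 72h RNA. Eif1a, an eIF1A gene that did not pass in any course at 72 h, was at 0.29 ± 0.09 (SE), adjusted p = 0.0197. All 9 late granule markers lay lower in V449E cells at 72 h (range -4.06 to -1.44), of which 8 passed. They were already lower at 0 h (median -1.71, 3 passed), and 6, 7, 6 and 9 of them passed at 6, 12, 24 and 48 h. At 72 h, 5 of 11 macrophage markers were lower and 1 higher (median -0.35). Of 8 mast cell markers, Cpa3, Fcer1a and Mcpt8 were higher (range -0.33 to 3.02), and of 7 early myeloid markers, Cd34 and Myb were higher and Prtn3 lower (range -1.32 to 1.34). The part of these markers in the result was not tested. With arrays set to equal spread 14 factors passed, without V449E 72h replicate 1 also 14, and without FI-Delta 72h replicate 1 there were 11. Eef1e1, Eef1g, Eef2k, Eif3a, Eif3h, Eif3l, Eif3m, Eif4e and Eif6 passed under all 15 settings tried.

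**Figure D4:**
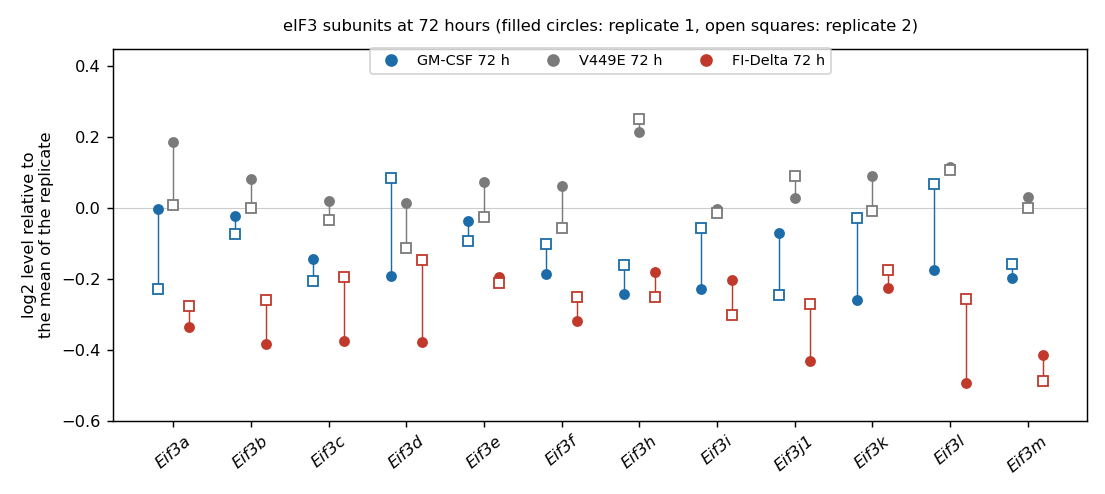
Log2 level relative to the replicate mean (y axis) of the 12 measured eIF3 subunits (x axis) at 72 h in the 3 lines, with a point for each RNA and a line joining the replicates. The FI-Delta RNAs lie below the V449E RNAs in every subunit, with a median difference between the lines of 0.32. The share of all symbols that separate in this way was not counted.

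Before 72 h few factors passed between V449E and FI-Delta cells, but most lay above 0 in V449E cells from 12 h on. At 12, 24 and 48 h, 43, 36 and 39 of the 55 did, with medians of 0.078, 0.058 and 0.060. Over all symbols, 52.8%, 51.8% and 52.3% lay below 0 at these times. At 0 h none passed (0.311% of all symbols in either direction, 3 at an unadjusted p under 0.05 in limma). At 6 h Eif4e3, a cap-binding relative of eIF4E, was higher in V449E cells at 0.30 ± 0.07 (SE), adjusted p = 0.0279 (0.457% of all symbols were higher). At 12 h Eif4e was higher at 0.41 ± 0.11 (SE), adjusted p = 0.0471 (0.55%), and at 24 h none passed (3.8% in either direction, 12 at an unadjusted p under 0.05). At 48 h Eef1g (0.40), Eef2k (0.57), Eif3b (0.25) and Eif4e (0.47) were higher in V449E cells (4.1%). Eef1akmt2, a methyltransferase of eEF1A, was lower there (-0.27 ± 0.07 (SE), adjusted p = 0.0182, with 5.54% of all symbols lower). The members' shares at 48 h were 7.27% higher and 1.82% lower, which is 4 genes and 1 gene. Eif4e passed at 12, 48 and 72 h, with differences of 0.41, 0.47 and 0.77.

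Whether the 72 h responses of the lines differ was tested on the responses themselves. The FI-Delta change from 0 h was lower than the V449E change for 9 factors (2.64% of all symbols): Eef1e1, Eef1g, Eif3b, Eif3h, Eif3j1, Eif3l, Eif3m, Eif4e and Eif6. Eef1g changed by -0.66 and -0.48 in FI-Delta cells and by -0.00026 and 0.17 in V449E cells, a difference of -0.65 ± 0.12 (SE), adjusted p = 0.00421. Eif4e changed by -0.58 and -0.63 against 0.07 and 0.00021 (-0.64 ± 0.15 (SE), adjusted p = 0.017). In both genes the FI-Delta changes were negative in each replicate, while each V449E change was near 0 or above it. The count was 1 with arrays set to equal spread and between 0 and 7 when 1 RNA was left out. It was 0 without V449E 0h replicate 2, 3 without V449E 0h replicate 1, FI-Delta 72h replicate 1 or FI-Delta 0h replicate 2, 4 without V449E 72h replicate 1, and 5 without V449E 72h replicate 2 or FI-Delta 0h replicate 1. The FI-Delta and GM-CSF responses differed in no factor (0.00662% of all symbols in either direction), and 5 had an unadjusted p under 0.05 in limma.

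At matched times, FI-Delta cells without factor and parental cells in GM-CSF differed in 1 factor. None passed at 6, 12 or 24 h (0.702%, 0.424% and 0.219% of all symbols in either direction), with 5, 5 and 9 members at an unadjusted p under 0.05 in limma. At 48 h Eif3b was lower in FI-Delta cells at -0.40 ± 0.08 (SE), adjusted p = 0.0274 (0.132% of all symbols were lower). Its levels were -0.19 and -0.13 in FI-Delta cells and 0.31 and 0.18 in GM-CSF, without overlap. At 72 h none passed in limma, 11 had an unadjusted p under 0.05, and 1.21% of all symbols passed in either direction. The largest differences then were Eif4b at -0.37 ± 0.14 (SE), adjusted p = 0.253, Eif2s2 at -0.33 ± 0.12 (SE), adjusted p = 0.197, Eif3l at -0.32 ± 0.08 (SE), adjusted p = 0.0548 and Eif4g3 at 0.30 ± 0.08 (SE), adjusted p = 0.0555. All 12 eIF3 subunits were lower in FI-Delta cells by sign, with a median of -0.17. In IL-3 at 0 h, no factor differed between V449E and parental cells (0.934% of all symbols, 4 members at an unadjusted p under 0.05) or between FI-Delta and parental cells (0.126%, 2 members).

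Other genes of the translation machinery were counted from lists by function, beside 10.7% of all symbols lower and 7.85% higher in FI-Delta cells at 72 h and 3.41% and 3.82% in GM-CSF. In FI-Delta cells at 72 h, 5 of 9 genes that make hypusine or diphthamide, the modified residues of eIF5A and eEF2, were lower (median -0.23). These were Dph1, Dph3, Dph7, Odc1 (-0.71 ± 0.11) and Srm (-0.46 ± 0.11); Odc1 and Srm make the polyamine from which hypusine is built. Of 10 cap, poly(A) and helicase partners of initiation, 5 were lower (median -0.25), among them Pabpc4, a poly(A)-binding protein, at -0.68 ± 0.08. The others were Paip2, Larp1, Ybx1 and Ncbp2. Of 10 termination, recycling and rescue factors, 4 were lower: Gspt1, the release factor eRF3, at -0.21 ± 0.06, and Abce1, Pelo and Hbs1l (median -0.18). Tsfm and Gfm1 were the 2 of 5 mitochondrial factors that were lower (median -0.26). Of 14 genes of the TOR and MAP kinase arms that act on initiation, 1 was higher, Rps6ka3, and none lower (median -0.0027), a share near that of all symbols. In the list on control of eIF2 alpha phosphorylation, 1 of 9 was lower (Abcf1) and 2 were higher, Nck1 and Ppp1r15b, a subunit of the eIF2 alpha phosphatase at 0.40 ± 0.12; the share lower is near that of all symbols. In GM-CSF at 72 h, Pabpc4, Paip2, Larp1 and Odc1 were lower, as were Atf4 (-0.83 ± 0.23), the transcription factor made when eIF2 is phosphorylated, and Dnajc3, while Nck1 was higher. Atf4 was also lower at 12 h in GM-CSF, V449E and FI-Delta cells (2.27%, 0.894% and 4.34% of all symbols were lower). At 24 h it was lower in GM-CSF and in V449E cells. No gene of these lists passed in V449E cells at 72 h, where 0% of all symbols passed.

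How the 55 genes followed each other was described by their correlation with the median member profile over the 36 RNA levels, which share arrays and references. Eif3m (r = 0.85), Eif6 (0.85), Eif3a (0.82) and Eif3j1 (0.80) were closest to it. Eef1a1 (-0.32), Eif2ak2 (-0.30) and Eif4ebp2 (-0.30) were farthest. Of genes outside the group, Utp4 (0.92), C1qbp (0.91) and Polr2m (0.91) were most like it. Of the 55 genes, 30 passed the F-test in no line, among them Eef1a1, Eef2, Eif4a2, Eif4a3, Eif5a and all 4 kinases. Most symbols passed in no line either: 17.4% of all symbols passed in GM-CSF, 5.74% in V449E cells and 15.7% in FI-Delta cells. The exact share that passed in no line was not counted.

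Several genes had more than 1 probe, and the probes did not always tell the same story. Of 8 such genes, the correlation between probes over the 36 levels was 0.74 for Eef1a1, 0.54 to 0.80 for the 3 probes of Eef2, 0.52 for Eif2ak2, 0.41 for Eif4a2 and 0.39 for Eif2s3x. It was 0.08 for Eef1b2, -0.14 for Eef1d and -0.30 for Eef1a2, so the means of these 3 genes join unlike readings. For Eef1a2, 1 probe was lower in FI-Delta cells at 72 h (-0.30, limma adjusted p = 0.00332) and in GM-CSF (-0.26, adjusted p = 0.0255), and the other was at 0.16 in FI-Delta cells. The only probe of Eif5, 1 of 2 of Eif4a2 and 1 of 2 of Eef1b2 carry sequence records of a series in which the records named by RefSeq are small nucleolar RNAs. Many such RNAs lie in introns of translation genes, and whether these probes read the messenger RNA was not tested. The Eif5 probe gave -1.18 and 0.0025 in the replicates at 24 h in GM-CSF and -0.71 and -0.25 at 72 h.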

How the data were processed

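Total RNA of the 36 samples was compared on two-colour arrays with a dye swap for every comparison (58 pairs, 28 comparisons). Values are the log2 ratios the authors deposited, with base and direction (Cy5 over Cy3) not stated. Per the labels, arrays of print run 1 were reordered to the layout of run 2 after normalisation. limma is listed in the submitters' processing notes without a version, and the normalisation method is not given in the sources used here. Intensities were not used here, so signal over background is unknown. Values ran from -7.05 to 5.28, and the correlation of a dye-swap pair over probes ran from -0.653 to -0.0327.

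Of 23040 spots, 1243 controls were left out (8 of them name one of the 55 genes), leaving 21797 probes, of which 16651 had 1 gene symbol, 137 several and 5009 none. 1 probe that names Eif4h among several symbols was not used. Swapped arrays were turned and pairs averaged. Probes of a symbol were averaged (8 of the 55 genes had more than 1). A level per RNA was then solved by least squares within each replicate number, because arrays join only RNAs of the same number (4 arrays a comparison, 8 for V449E against parental cells at 0 h). The number therefore enters the fit as a block: the pairing comes from the array design. The 36 levels were fitted in R 4.3.3 with limma 3.58.1 (17 residual and 5.57 prior degrees of freedom). Tests were two-sided, adjusted by Benjamini-Hochberg over 15097 symbols within each contrast, threshold 0.05.

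On simulated data with 200 changed symbols of 15097, the fit found 44.8%, 85.1% and 98.5% of changes of 0.3, 0.5 and 1 log2 in FI-Delta cells at 72 h against 0 h (3.8% of 158 calls were false). For GM-CSF the shares were 40.3%, 67.2% and 98.5% (4.2% of 143 calls), and for V449E cells 37.3%, 68.7% and 100% (4.86% of 144 calls). Each gene was given the same simulated spread in every condition. These shares therefore do not measure how sensitivity differs between the lines.

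The members and all gene lists were chosen with earlier results of these data known. Full values were given for up to 5 genes that rose and 5 that fell by most in each of 7 comparisons, if past the threshold and of the same sign in both replicates, for genes passing the F-test in all 3 lines, and for genes whose 72 h responses differ. Alternatives covered the scaling of arrays, the replicate block, the arrays and print run used, the weighting and handling of probes, the threshold and leaving out each RNA.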

Additional observations from a re-analysis of the deposited data

Results flagged for a closer look

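For 9 factors, the change from 0 h to 72 h without factor differed between FI-Delta and V449E cells by a test of the difference of the responses (FI-Delta minus V449E, log2, limma with Benjamini-Hochberg adjustment over all symbols). The differences were -0.65 for Eef1g (adjusted p = 0.00421), -0.64 for Eif4e (0.017), -0.60 for Eif3l (0.00551), -0.55 for Eif3m (0.00964) and -0.52 for Eef1e1 (0.0429). They were -0.49 for Eif3j1 (0.0406), -0.45 for Eif3h (0.0219), -0.44 for Eif3b (0.0329) and -0.39 for Eif6 (0.0445). FI-Delta cells fell in all 9, and 5 of the 9 are eIF3 subunits. With arrays set to equal spread 1 factor passed, and 0 passed without V449E 0h replicate 2.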

How the results depend on the processing

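No gene that passed in the 72 h comparisons changed sign under any alternative, while medians of V449E cells near 0 did. A condition left with 1 RNA is taken to vary like the other conditions. Arrays set to equal spread, which lowers the calls over all symbols in FI-Delta cells at 72 h from 1185 higher and 1608 lower to 549 and 869, gave 17 factors and a median of -0.18 for FI-Delta 72h (8 of the 25 lost), 8 factors for GM-CSF 72h (5 of the 12 lost), 14 factors for V449E against FI-Delta at 72 h, 1 for V449E at 24 h, F-test counts of 10 (V449E) and 13 (FI-Delta), and 1 difference of responses. Without the replicate block, 26 factors passed for FI-Delta 72h, 15 for GM-CSF 72h, 24 for V449E against FI-Delta, 1 for V449E 24h and 2 for FI-Delta against GM-CSF at 72 h. Dye-swap pairs taken as independent gave 20 for GM-CSF 72h, 4 for V449E 24h, 8 for FI-Delta against GM-CSF, 17 for V449E against parental cells at 0 h, 13 for the V449E F-test and 30 differences of responses. Several pairs share an RNA, so that setting counts technical pairs as replicates and overstates the evidence. Its share over all symbols is not given, and its counts do not replace those above. Direct arrays alone gave medians of 0.0069 (V449E 72h), -0.28 (FI-Delta 72h) and -0.039 (V449E 0h against parental, 4 factors), 1 factor for FI-Delta against GM-CSF, 11 for the GM-CSF F-test and 17 differences of responses. Print run 1 alone gave medians of -0.20 (GM-CSF 72h), -0.21 (FI-Delta 72h), -0.095 (FI-Delta against GM-CSF) and -0.058 (V449E 0h against parental, 1 factor), 1 factor for V449E 24h and 2 for the V449E F-test. The threshold 0.10 gave 1 factor for V449E 24h and 3 for FI-Delta against GM-CSF. Levels weighted by their arrays gave 10 for V449E against parental cells at 0 h. The median of probes gave -0.078 for FI-Delta against GM-CSF. Control spots that name a factor, added after seeing the data, gave -0.20 for FI-Delta 72h, and the 3 probes of small nucleolar RNA records left out, also added then, changed no call among the 25 factors of FI-Delta 72h. Leaving out 1 RNA gave the following ranges. FI-Delta 72h had 12 to 20 factors and medians of -0.27 to -0.19, and GM-CSF 72h 0 to 8 and -0.16 to -0.10. V449E 72h had 0 and -0.043 to -0.0048, and V449E 24h 0 to 1 and -0.05 to 0.04. V449E against FI-Delta at 72 h had 11 to 18 and 0.17 to 0.26, and FI-Delta against GM-CSF 0 to 2 and -0.097 to -0.061. V449E 0h against parental cells had 0 and -0.030 to 0.019, and the differences of responses numbered 0 to 7. The cause of these shifts was not tested. What signal over background limits is unknown.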
